A study of Arabidopsis thaliana with 12 samples.

Results

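The bzip17 mutant was compared with the wild type (WT) in flower buds of Arabidopsis thaliana after heat, using 6 of the 12 RNA-seq libraries of the study, 3 per genotype at 38 °C. Both genotypes are in the Columbia-0 background, and bzip17 is a single T-DNA insertion line, SALK_104326. Flowering plants were held at 38 °C for 6 h or kept at 22 °C, and the unopened buds of stages 1 to 12 from 8 plants made up each replicate. The remaining 6 libraries, 3 of WT and 3 of bzip17 at 22 °C, served to read the same genotype difference without heat. Of 33610 genes in the table, 20715 reached 1 FPKM (a fragment count scaled by transcript length and library size) in at least 3 of the 12 libraries and were tested.

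bZIP17 is a transcription factor that is made as a protein of the endoplasmic reticulum (ER) membrane. Under stress it moves to the Golgi, where site-1 and site-2 proteases release its DNA-binding part, which then enters the nucleus. With its relative bZIP28, and with bZIP60, whose messenger RNA is spliced by IRE1, it belongs to the unfolded protein response, which raises the chaperones and degradation machinery of the ER, and in roots and seedlings bZIP17 has also been tied to salt stress. The comparison at 38 °C asks how the bud transcriptome of heated plants differs when bZIP17 is disrupted.

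The 6 libraries at 38 °C held between 42227485 and 71779333 counts each. Ribosomal RNA loci took 19.0% of the counts in WT replicate 1 and 2.64% to 3.57% in the other 5. Levels below are CPM, counts scaled to a common library size with factors from the trimmed mean of M-values (TMM). The summed level of the floral meristem and organ identity genes was 677 to 1090 CPM in WT and 1050 to 1240 CPM in bzip17, with 1 of 25 listed genes at 0 in all 6 libraries, and none of the 10 seed storage genes was expressed well enough to be tested. Late pollen genes summed to 2460, 1260 and 993 CPM in WT and to 938, 2230 and 2710 CPM in bzip17, so the libraries of each genotype differed among themselves in this marker list, and its part in the results was not tested. In such bulk samples fewer cells of a type and less RNA per cell cannot be told apart.

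Few genes separated the genotypes at 38 °C. In edgeR, with p-values adjusted by Benjamini-Hochberg over all genes tested, 1 gene was called higher and 2 lower in bzip17, at an adjusted p under 0.05 and over 2-fold, which is 0.00483% and 0.00965% of the genes tested. The median log2 change over all genes was 0.0, and the 95% interval lay within 2-fold in either direction for 13928 genes (67.2%). At an unadjusted edgeR p under 0.05 there were 237 genes higher (1.14%) and 680 lower (3.28%). DESeq2, fitted to the same 12 libraries, called 5 higher (0.0241%) and 32 lower (0.154%). The log2 change had a median standard error of 0.23.

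The disrupted gene itself, BZIP17 (AT2G40950, chromosome 2, 17087620 to 17090424), read 45.2, 51.1 and 49.3 CPM in WT and 10.3, 8.22 and 9.39 CPM in bzip17 at 38 °C. All bzip17 libraries were below all WT libraries, and the level that remained was 853, 531 and 495 counts. Its log2 change was -2.38 (SE 0.20, n = 3 per genotype, edgeR adjusted p = 0.000678), or 5.21-fold lower. At 22 °C, WT read 36.8, 31.7 and 45.1 CPM and bzip17 4.04, 5.74 and 3.50 CPM, a log2 change of -3.10 (edgeR adjusted p = 0.00011). The left neighbour ERS1 (AT2G40940), an ethylene receptor, read 36.8, 56.9 and 38.2 CPM in WT and 29.9, 31.3 and 25.8 CPM in bzip17. Its groups did not overlap, but the log2 change of -0.60 (SE 0.19) did not pass the test (edgeR adjusted p = 0.92) and was -0.37 without WT replicate 2. The annotated gene on the right was too low to be tested.

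The other gene called lower was AT3G42658.1 (chromosome 3, 14749400 to 14750294), for which the table gives no description. It read 49.8, 45.1 and 51.3 CPM in WT and 0.957, 0.402 and 1.93 CPM in bzip17 at 38 °C. The groups were far apart, with a log2 change of -5.49 (SE 0.45, edgeR adjusted p = 0.000678), or 44.9-fold lower. At 22 °C the WT libraries read 59.1, 89.1 and 66.7 CPM and the bzip17 libraries 1.83, 1.31 and 2.21 CPM, a log2 change of -5.32 (edgeR adjusted p = 0.000601). BZIP17 and AT3G42658.1 were the 2 genes that edgeR called at 22 °C, both lower (0.00965%), with 0 higher (0.0%). DESeq2 called 18 higher (0.0869%) and 49 lower (0.237%) at 22 °C, and at an unadjusted edgeR p under 0.05 there were 1056 higher (5.1%) and 972 lower (4.69%).

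The gene called higher was AT4G10955 (chromosome 4, 6713557 to 6718555), annotated as an alpha/beta-hydrolase. It had 0 counts in all WT libraries at 38 °C and 1699, 784 and 758 counts in bzip17, at least 265-fold higher in mean CPM against a floor of 3 counts per WT library (edgeR adjusted p = 0.0192). Its deposited coordinates share 4994 bases with those of UGE5 (AT4G10960), a UDP-glucose epimerase that interconverts UDP-glucose and UDP-galactose. In the RefSeq annotation the 2 genes do not overlap, with AT4G10955 at 6713557 to 6715735 and UGE5 at 6715874 to 6718550. UGE5 moved the other way, with 1177, 173 and 1129 counts in WT and 183, 85 and 182 in bzip17. Reads of the 2 gene models summed to 24.7, 3.08 and 23.0 CPM in WT and to 22.8, 13.4 and 17.8 CPM in bzip17. The summed groups overlapped, and their log2 change was 0.09 (SE 0.74, 95% interval -1.53 to 1.72, edgeR adjusted p = 1.0). The call of AT4G10955 was also lost without WT replicate 2 (edgeR adjusted p = 0.0512) or without bzip17 replicate 1 (0.0707), 2 (0.112) or 3 (0.21).

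**Figure D1:**
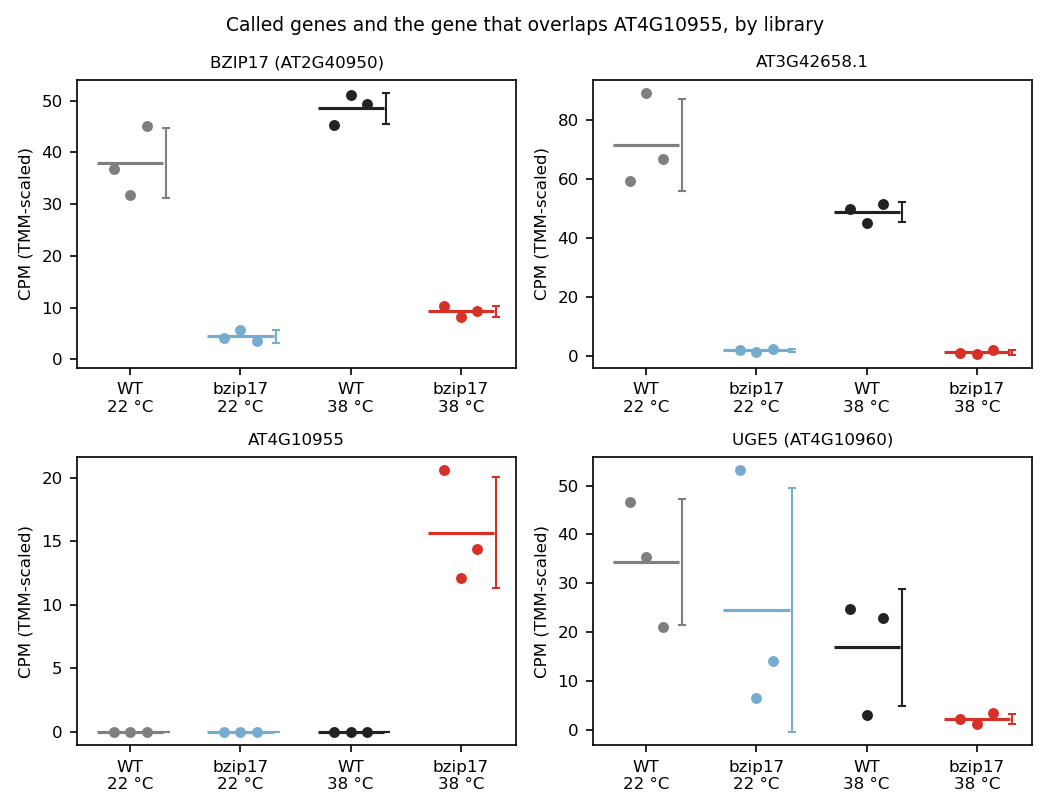
CPM (TMM-scaled, linear axis) of the 3 called genes and of UGE5 in each of the 12 libraries. Points are libraries, horizontal lines group means and bars SD (n = 3). BZIP17 and AT3G42658.1 were low in bzip17 at both temperatures, and AT4G10955 was above 0 only in the 3 bzip17 libraries at 38 °C, where UGE5 had 183, 85 and 182 counts.

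The other ER membrane and unfolded protein response regulators did not pass the test. Of 11 tested members of that list BZIP17 alone was called, and the list median was a log2 change of -0.07. BZIP60 read 22.6, 20.0 and 24.2 CPM in WT and 27.0, 28.1 and 32.6 CPM in bzip17, without overlap (log2 change 0.39, SE 0.18, edgeR adjusted p = 1.0). BZIP28 read 35.2, 43.3 and 34.3 CPM in WT and 35.9, 50.3 and 48.6 CPM in bzip17, with overlapping groups (log2 change 0.26, SE 0.15). The site-1 protease gene S1P had a log2 change of -0.07, IRE1A -0.07 and IRE1-1 -0.18, each with overlapping groups. The NAC factors NAC103, NAC062 and NAC089, which act with the ER stress regulators, had log2 changes of 0.00, -0.13 and -0.15, and BAG7, an ER co-chaperone regulator, 0.14. The value of NAC089 turned to 0.12 without WT replicate 2 and was -0.36 without WT replicate 1. The list median lay between -0.14 and -0.01 when any 1 library was left out. The intervals of 10 of the 11 lay within 2-fold, all but that of BZIP17.

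Genes of ER protein folding and degradation were lower in bzip17 more often than higher, by small amounts. Of 39 tested, 29 had a log2 change below 0 and 10 above, with a median of -0.14, where 50.5% of all genes were below 0. edgeR called 0, and DESeq2 called 1 lower, beside 0.154% of all genes. At an unadjusted edgeR p under 0.05, 6 were lower (15.4%) and 2 higher (5.13%), beside 3.28% and 1.14% of all genes. The groups did not overlap for 12 genes lower and 3 higher in bzip17, beside 6.99% and 4.80% of all genes. The intervals of 33 of the 39 lay within 2-fold. Leaving out any 1 of the 6 libraries left 26 to 31 genes below 0 and a median between -0.16 and -0.11. At 22 °C, without heat, 32 of the 39 were below 0 with a median of -0.21. There, 12 were lower and 1 higher at an unadjusted edgeR p under 0.05, beside 4.69% and 5.1% of all genes. Without WT replicate 3 at 22 °C, a library with 64.8% of its counts on rRNA, 33 were below 0 and the median was -0.17.

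The lower genes were led by PDIL2-2 (AT1G04980), a protein disulfide isomerase-like gene. It read 59.6, 60.5 and 61.3 CPM in WT and 29.1, 29.3 and 29.9 CPM in bzip17. The replicates were tight and the genotypes well apart, with a log2 change of -1.04 (SE 0.17), 2.05-fold lower, that missed the edgeR threshold (adjusted p = 0.0958) and passed it in DESeq2 (adjusted p = 0.000219). With the 6 libraries at 38 °C alone, edgeR called it too (adjusted p = 0.0411). At 22 °C the gene read 15.8, 16.3 and 16.4 CPM in WT and 11.6, 8.87 and 15.3 CPM in bzip17, also without overlap (log2 change -0.44, edgeR adjusted p = 0.472).

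AT5G07340, annotated as a calreticulin family protein, read 155, 168 and 159 CPM in WT and 100, 90.2 and 86.9 CPM in bzip17. No libraries overlapped, and the log2 change was -0.80 (SE 0.12, edgeR adjusted p = 0.0958), close to the -0.68 at 22 °C. UTR1 (AT2G02810), a transporter of UDP-galactose and UDP-glucose into the ER, read 78.7, 67.6 and 69.0 CPM in WT and 36.9, 38.1 and 39.2 CPM in bzip17. Its log2 change was -0.91 (SE 0.18, edgeR adjusted p = 0.295), beside -0.96 at 22 °C. Neither UTR1 nor AT5G07340 passed 2-fold, and both had a DESeq2 adjusted p under 0.05 (0.01 and 1.3e-05). P58IPK (AT5G03160), a J-domain co-chaperone of the ER lumen, read 56.9, 69.5 and 59.3 CPM in WT and 47.3, 42.5 and 45.9 CPM in bzip17 (log2 change -0.45, SE 0.14), again without overlap. BIP1, an HSP70 chaperone of the ER, read 866, 1070 and 696 CPM in WT and 597, 661 and 662 CPM in bzip17 (log2 change -0.46, SE 0.17).

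A few members of the list lay the other way. ATERDJ3A (AT3G08970), an ER J-domain protein known for its part in pollen tubes at high temperature, read 22.8, 20.1 and 20.1 CPM in WT and 27.9, 54.8 and 50.2 CPM in bzip17. TIN1 (AT5G64510), induced by tunicamycin, read 23.9, 18.3 and 13.8 CPM in WT and 31.9, 45.0 and 51.2 CPM in bzip17. Neither gene had overlapping groups, and in both bzip17 replicate 1 was the lowest of its group. The log2 changes were 1.08 (SE 0.34, edgeR adjusted p = 0.92) and 1.19 (SE 0.40, edgeR adjusted p = 0.978). ATERDJ3A was also higher at 22 °C (log2 change 1.35), whereas TIN1 had -0.48 there. BIP3, an HSP70 gene known as an ER stress marker, read 3.06, 0.659 and 0.937 CPM in WT and 1.05, 3.11 and 4.91 CPM in bzip17, with overlapping groups.

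**Figure D2:**
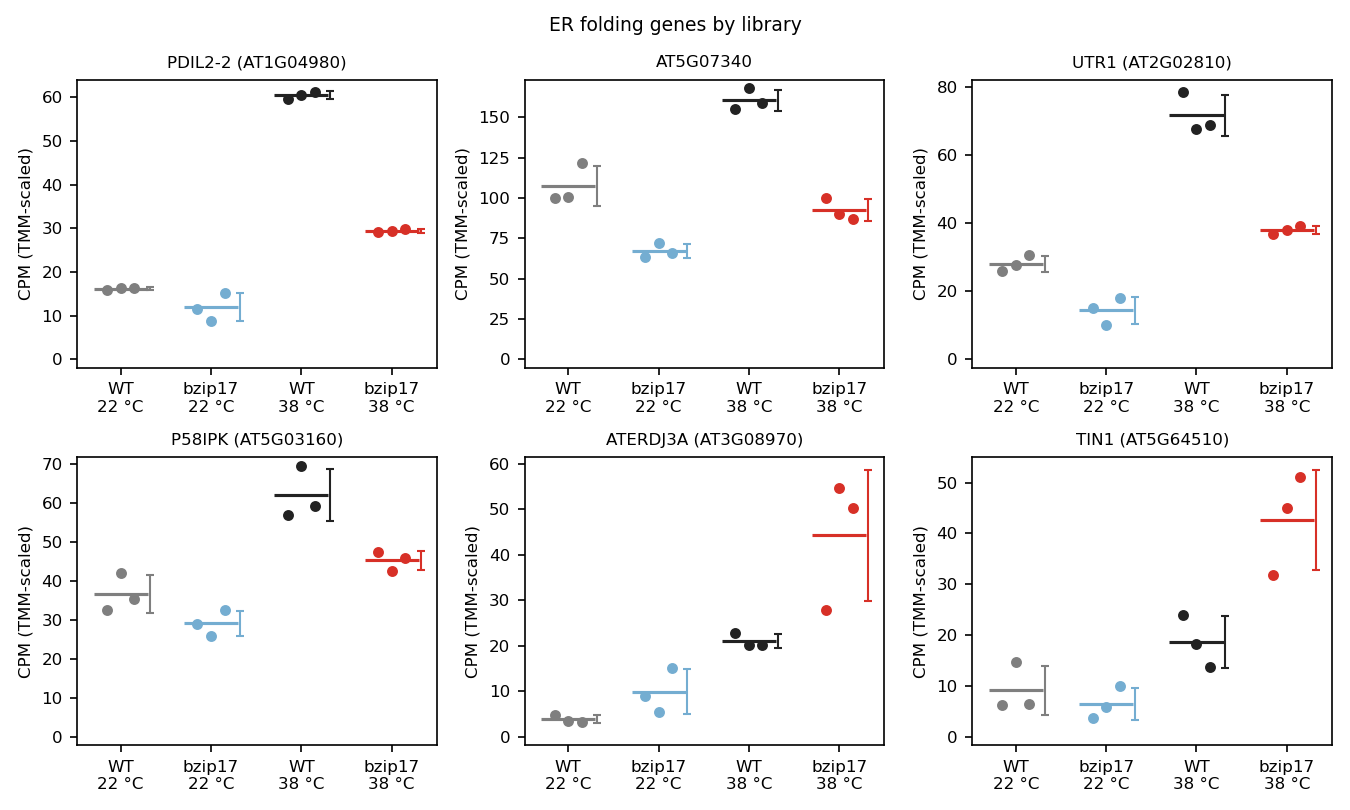
CPM (TMM-scaled, linear axis) of 6 ER folding genes in each of the 12 libraries. Points are libraries, lines group means and bars SD (n = 3). At 38 °C PDIL2-2, AT5G07340, UTR1 and P58IPK were lower in all 3 bzip17 libraries than in any WT library, and ATERDJ3A and TIN1 were higher.

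**Figure D3:**
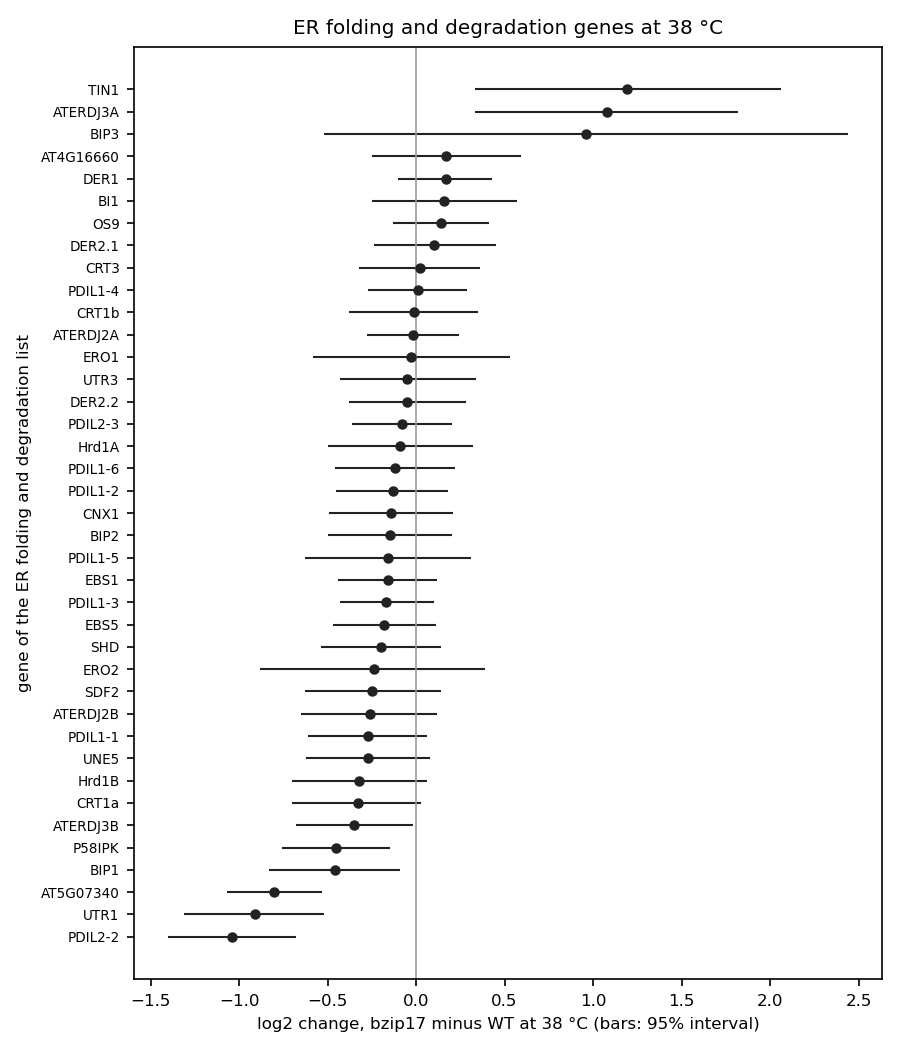
Log2 change, bzip17 minus WT at 38 °C, of the 39 tested ER folding and degradation genes, ordered by size, with 95% intervals from edgeR. The changes run from -1.04 for PDIL2-2 to 1.19 for TIN1, and 33 of the 39 intervals lie within 2-fold.

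Promoters of some genes of the list are shown, with matches to ER stress elements where they hold them. The unfolded protein response factors are known to act through these elements. Of the promoters shown, that of UTR1 holds only a G-box, and that of AT5G07340 is not shown. Within 250 bases upstream of the deposited gene start, on either strand, the element ERSE was found in 18 of the 39 promoters (46.2%) and in 1.22% of the 20451 promoters of all tested nuclear genes. The shorter ERSE-II was in 2 of the 39 (5.13%) and in 0.088% of all, the G-box CACGTG in 15 (38.5%) against 8.89%, and the core TGACGTG in 12 (30.8%) against 3.76%. The G-box can overlap the abscisic acid element, searched as ACGTGTC or ACGTGGC and found in 43.6% of the list and 9.27% of all. Within the list, genes with ERSE had a median log2 change of -0.15 and those without it -0.12. The medians with and without were -0.20 and -0.10 for the G-box and -0.16 and -0.12 for TGACGTG. For the abscisic acid element they were -0.20 and -0.08, and for ERSE-II, held by 2 genes, -0.30 and -0.13. These differences were not tested. In the following windows, the whole 250 bases searched, read from the TAIR10.1 genome and given 5′ to 3′ on the gene's strand, capitals mark every match of ERSE, ERSE-II, the G-box and TGACGTG on either strand. PDIL2-2 has ERSE and TGACGTG overlapping, BIP1 ERSE-II overlapping TGACGTG, and UTR1 a G-box alone. P58IPK and BIP3 each have 2 ERSE copies, 1 of them overlapping a G-box, and ATERDJ3B has 1 ERSE overlapping a G-box. A match describes the letters only.
PDIL2-2, chr1:1416145-1416394, minus strand: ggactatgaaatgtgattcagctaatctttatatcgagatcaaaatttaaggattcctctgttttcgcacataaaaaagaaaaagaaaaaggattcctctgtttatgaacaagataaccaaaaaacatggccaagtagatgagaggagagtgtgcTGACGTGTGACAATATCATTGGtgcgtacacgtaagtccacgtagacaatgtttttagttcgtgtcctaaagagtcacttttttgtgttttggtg
P58IPK, chr5:749859-750108, plus strand: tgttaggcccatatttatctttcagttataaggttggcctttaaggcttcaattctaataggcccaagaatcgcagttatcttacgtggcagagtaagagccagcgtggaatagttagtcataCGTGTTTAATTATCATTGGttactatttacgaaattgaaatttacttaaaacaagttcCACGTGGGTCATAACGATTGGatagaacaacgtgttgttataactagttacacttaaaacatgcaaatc
BIP1, chr5:10543376-10543625, minus strand: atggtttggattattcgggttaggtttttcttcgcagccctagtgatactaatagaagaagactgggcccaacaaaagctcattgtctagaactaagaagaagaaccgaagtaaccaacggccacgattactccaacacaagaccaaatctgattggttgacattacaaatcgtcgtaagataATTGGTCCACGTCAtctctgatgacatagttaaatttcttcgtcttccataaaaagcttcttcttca
UTR1, chr2:801280-801529, plus strand: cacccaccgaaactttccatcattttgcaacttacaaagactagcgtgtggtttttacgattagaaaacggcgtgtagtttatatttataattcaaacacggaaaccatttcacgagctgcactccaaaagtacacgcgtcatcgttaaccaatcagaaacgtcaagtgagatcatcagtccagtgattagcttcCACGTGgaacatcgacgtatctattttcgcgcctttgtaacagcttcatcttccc
ATERDJ3B, chr3:23153511-23153760, minus strand: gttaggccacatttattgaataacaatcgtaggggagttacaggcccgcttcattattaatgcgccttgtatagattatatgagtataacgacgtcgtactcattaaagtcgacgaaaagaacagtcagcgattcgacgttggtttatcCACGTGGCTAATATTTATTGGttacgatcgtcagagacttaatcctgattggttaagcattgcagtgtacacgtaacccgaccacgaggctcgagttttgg
BIP3, chr1:2931842-2932091, minus strand: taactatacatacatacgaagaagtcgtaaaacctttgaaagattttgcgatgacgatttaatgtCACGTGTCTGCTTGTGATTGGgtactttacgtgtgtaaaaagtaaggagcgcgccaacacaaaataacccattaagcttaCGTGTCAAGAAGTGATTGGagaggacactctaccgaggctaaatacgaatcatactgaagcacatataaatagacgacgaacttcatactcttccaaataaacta
PDIL2-2 and P58IPK, with log2 changes of -1.04 and -0.45, hold ERSE. BIP3 holds it too, with a log2 change of 0.96 (SE 0.68, 95% interval -0.52 to 2.44) and overlapping groups. Of the 18 list genes with ERSE, 13 were below 0, beside 29 of all 39. The part of the element in these changes was not tested. Of the 32 genes that DESeq2 called lower, 2 held ERSE (6.25%) and 0 held ERSE-II.

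The bZIP17 target genes chosen for both ChIP-qPCR and RT-qPCR, 6 in number, were all lower in bzip17 at 38 °C, and none passed the test. Their median log2 change was -0.30, and edgeR and DESeq2 each called 0. At an unadjusted edgeR p under 0.05, 2 of the 6 (33.3%, beside 3.28% of all genes) were lower. They were picked as targets in the study, so their direction is not independent evidence. ATERDJ3B, an ER J-domain co-chaperone, read 192, 195 and 168 CPM in WT and 143, 140 and 153 CPM in bzip17, without overlap (log2 change -0.35, SE 0.15). P5CS1, the proline synthesis enzyme, read 151, 118 and 90.9 CPM in WT and 99.2, 92.5 and 86.9 CPM in bzip17, with overlap (log2 change -0.37, SE 0.17, and -0.16 without WT replicate 1, the library with 19.0% rRNA). SDF2, of an ER chaperone complex, had a log2 change of -0.25, SHD, the ER HSP90, -0.20, CNX1, calnexin, -0.14, and HB-7, a homeodomain factor of drought response, -0.39. The intervals of 5 of the 6 lay within 2-fold, and only that of HB-7 did not (-1.32 to 0.53). The HB-7 change was -0.12 without bzip17 replicate 1 and -0.82 without bzip17 replicate 3. At 22 °C 4 of the 6 were below 0.

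Defence genes of the salicylic acid pathway had lower values in bzip17 for most members at 38 °C. Of 20 tested, 18 were below 0 with a median log2 change of -0.56, and 7 (35.0%) were lower at an unadjusted edgeR p under 0.05, beside 3.28% of all genes. edgeR called 0 of them and DESeq2 called 2 lower, beside 0.154% of all genes. The summed level was 184, 214 and 191 CPM in WT and 145, 131 and 130 CPM in bzip17. WRKY70, a transcription factor of salicylic acid signalling, read 8.88, 16.0 and 8.17 CPM in WT and 4.04, 4.98 and 3.30 CPM in bzip17, with no overlap (log2 change -1.42, SE 0.30, edgeR adjusted p = 0.369, DESeq2 0.00538). SAG101, which acts with EDS1 and PAD4 in immunity, read 4.16, 4.94 and 3.20 CPM in WT and 2.36, 1.92 and 1.35 CPM in bzip17 (log2 change -1.12, SE 0.27, edgeR adjusted p = 0.603, DESeq2 0.0496). Without any 1 library 17 to 19 members stayed below 0, with medians from -0.65 to -0.33, the smallest of these without WT replicate 2. At 22 °C the list median was -0.08 (-0.14 without WT replicate 3 at 22 °C), with 12 members below 0 and 8 above. At an unadjusted edgeR p under 0.05, 4 of the 20 were lower and 2 higher there, beside 4.69% and 5.1% of all genes. WRKY70 and SAG101 had log2 changes of -0.61 and -0.87 at 22 °C.

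Glucosinolate synthesis genes, which make defence compounds of the mustard family, had 11 of 12 tested members below 0 and a median log2 change of -0.35. CYP83B1, a P450 of the indole branch, read 10.1, 12.2 and 9.84 CPM in WT and 3.64, 1.90 and 2.64 CPM in bzip17. The groups were apart (log2 change -1.97, SE 0.32, edgeR adjusted p = 0.0958, DESeq2 7.92e-06). CYP79B2, the preceding P450, read 1.41, 0.535 and 0.917 CPM in WT and 0.327, 0.418 and 0.228 CPM in bzip17 (log2 change -1.54, SE 0.44). edgeR called 0 of the 12, with 4 lower (33.3%) at an unadjusted p under 0.05, beside 3.28% of all genes. DESeq2 called 1 of the 12 lower, beside 0.154% of all genes. The list median rested on WT replicate 1, the library with 19.0% rRNA. Without it 6 of 12 were below 0 and the median was -0.03, whereas without any 1 of the others it lay between -0.49 and -0.28. At 22 °C 11 of the 12 were above 0, with a median of 0.27 (0.45 without WT replicate 3 at 22 °C).

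Abscisic acid, salt and dehydration genes had a median log2 change of -0.16, with 32 of 49 below 0. edgeR and DESeq2 called 0, and 7 were lower and 0 higher at an unadjusted edgeR p under 0.05, beside 3.28% lower and 1.14% higher of all genes. PP2CA, a phosphatase that restrains abscisic acid signalling, read 102, 71.7 and 72.5 CPM in WT and 54.1, 52.6 and 55.4 CPM in bzip17 (log2 change -0.60, SE 0.15, edgeR adjusted p = 0.625). ABA1, an enzyme of abscisic acid synthesis, had a log2 change of -0.43 (SE 0.14) without overlap. Without any 1 library the median lay between -0.22 and -0.08. At 22 °C it was 0.03 (0.14 without WT replicate 3 at 22 °C). There, 6 of the 49 were higher and 2 lower at an unadjusted edgeR p under 0.05, beside 5.1% and 4.69% of all genes.

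The cytosolic and organellar heat shock proteins had a median log2 change of 0.20, with 31 of 45 above 0. edgeR and DESeq2 called 0 of them, and 2 (4.44%, beside 1.14% of all genes) were higher at an unadjusted edgeR p under 0.05. Their summed level was 10400, 31400 and 11600 CPM in WT and 13100, 25100 and 15900 CPM in bzip17. Replicate 2 of each genotype was thus the highest, and the groups overlapped. The median became -0.03 without WT replicate 1, 0.01 without WT replicate 3 or bzip17 replicate 2, and 0.59 without WT replicate 2. Hsp70-2 read 77.7, 68.6 and 105 CPM in WT and 129, 125 and 155 CPM in bzip17, without overlap (log2 change 0.70, SE 0.21, edgeR adjusted p = 0.863). Among 21 heat stress transcription factors and partners the median was 0.05 (-0.14 without bzip17 replicate 2 and 0.20 without WT replicate 2). Both tools called 0 of the 21. At an unadjusted edgeR p under 0.05, 2 were higher (9.52%) and 1 lower (4.76%), beside 1.14% and 3.28% of all genes. HSFB2A, a class B factor, read 5.27, 4.74 and 4.50 CPM in WT and 7.08, 16.1 and 15.3 CPM in bzip17 (log2 change 1.41, SE 0.36, edgeR adjusted p = 0.665), and HSFB2B, a related factor, had 0.87 (SE 0.24).

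Bud tissue lists leaned upward without passing the test. Wax and cutin genes had 35 of 39 above 0 (median log2 change 0.31), tapetum and pollen wall genes 35 of 38 (0.25), late pollen genes 29 of 32 (0.36) and nuclear photosynthesis genes 53 of 63 (0.11), beside 49.5% of all genes. edgeR and DESeq2 called 0 in each. At an unadjusted edgeR p under 0.05 there were 0 in the first 3 lists and 3 higher in the photosynthesis list (4.76%, beside 1.14% of all genes). WT replicate 2 was the lowest of the 6 libraries in summed wax and cutin level (1490 CPM, others 2360 to 3170 CPM) and in tapetum level (1680 CPM, others 2720 to 3750 CPM), and without it the medians were 0.11 and 0.0. The late pollen median was 0.81 without WT replicate 1, 0.07 without WT replicate 3 and 0.09 without bzip17 replicate 3, and the photosynthesis median was 0.01 without bzip17 replicate 1. At 22 °C the wax and cutin median was 0.86, with 25 of 39 higher at an unadjusted edgeR p under 0.05, the photosynthesis median 0.46, with 43 of 63 higher, and the tapetum median 0.50, with 10 of 38 higher, beside 5.1% of all genes. Late pollen genes lay the other way there, with a median of -1.09 and 16 lower and 2 higher of 32, beside 4.69% of all genes lower. Without WT replicate 3 at 22 °C these medians were 0.79, 0.49, 0.57 and -1.23. LHCB4.2, an antenna protein gene, read 181, 191 and 226 CPM in WT and 250, 242 and 274 CPM in bzip17 (log2 change 0.36, SE 0.13). WUS, the stem cell factor of the floral meristem, read 3.11, 2.62 and 3.73 CPM in WT and 6.87, 6.58 and 9.67 CPM in bzip17 (log2 change 1.29, SE 0.47, edgeR adjusted p = 1.0). Its list, floral meristem and organ identity, had 16 of 23 genes above 0 and 7 below, with a median of 0.32 (0.13 without WT replicate 2). Both tools called 0 of the 23. At an unadjusted edgeR p under 0.05, WUS alone was higher (4.35%, beside 1.14% of all genes). TFL1 and CAL were among the 7 below 0 (log2 changes -1.44 and -0.47). Meiosis genes had a median of 0.01, mitosis genes 0.13, circadian clock genes -0.01 (0.04 with library totals in place of TMM), jasmonate genes -0.08, cell wall genes -0.09, oxidative stress genes 0.06, flavonoid genes 0.36 and reference genes 0.05, with 0 called by either tool. Without WT replicate 2 the flavonoid median was 0.17, the mitosis median 0.04, the cell wall median 0.04 and the clock median 0.05. Without bzip17 replicate 1 the mitosis and cell wall medians were 0.02 and the oxidative stress median -0.01, without WT replicate 3 the jasmonate median was 0.05 and the mitosis median 0.23, and without WT replicate 1 the meiosis median was -0.03. At an unadjusted edgeR p under 0.05 these lists held 2 clock genes higher and 2 lower (9.52% each) and 3 jasmonate genes lower (9.68%). They also held 2 oxidative stress genes (11.1%) and 1 reference gene (8.33%) higher. The clock genes were PRR5 and FKF1 (log2 changes -0.66 and -0.58) and PCL1 and LCL1 (0.56 and 0.46). The jasmonate genes were JAZ7, AOC3 and OPCL1 (-1.11, -0.89 and -0.49). Of all genes, 1.14% were higher and 3.28% lower.

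**Figure D4:**
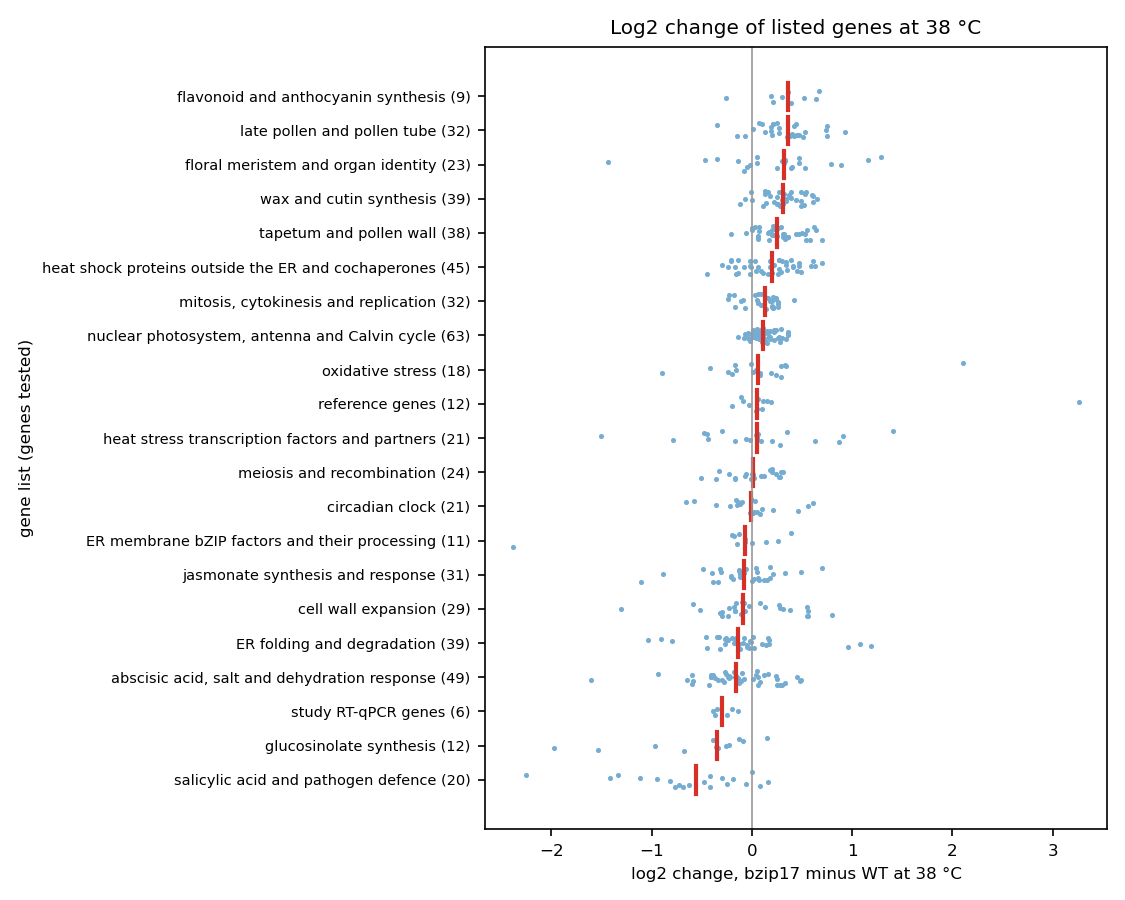
Log2 change, bzip17 minus WT at 38 °C, for each tested gene (point) of 21 lists, with the list median as a red line and the number of genes in brackets. List medians run from -0.56 for salicylic acid and pathogen defence to 0.36 for late pollen and flavonoid genes.

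The genes that only DESeq2 called, 30 lower and 4 higher, are named after their values were seen. All 34 had groups that did not overlap and an unadjusted edgeR p under 0.05, with edgeR adjusted p between 0.0958 and 0.665. Of all genes, 11.8% had groups that did not overlap and 4.43% such a p. Since DESeq2 picked the 34 from these same libraries, their values here are only a description. Besides CYP83B1, WRKY70, SAG101 and PDIL2-2, the lower ones held WAK1 and WAK2, cell wall-associated kinases, FLS2, the flagellin receptor, and PRXCB, a cell wall peroxidase. WAK1 read 25.8, 52.1 and 31.9 CPM in WT and 9.48, 14.5 and 8.10 CPM in bzip17 (log2 change -1.77, SE 0.32). PRXCB read 33.5, 76.6 and 51.2 CPM in WT and 18.9, 22.5 and 17.8 CPM in bzip17 (log2 change -1.45, SE 0.28). WT replicate 2 was the highest library for WAK1, WAK2, FLS2 and PRXCB. XBAT34 read 2.35, 7.40 and 4.46 CPM in WT and 0.509, 0.449 and 0.645 CPM in bzip17 (log2 change -3.15, SE 0.48). AT1G24147 had 0 counts in all 3 bzip17 libraries and a mean of 0.366 CPM in WT, at least 7.87-fold lower against a floor of 3 counts per bzip17 library. Of the higher ones, QQS, which affects starch content, read 4.72, 1.73 and 6.89 CPM in WT and 22.5, 31.2 and 19.2 CPM in bzip17 (log2 change 2.45, SE 0.49, edgeR adjusted p = 0.329).

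The 22 °C libraries, which share no sample with those at 38 °C, gave a separate reading of these genes. Their rRNA shares were 3.76%, 15.1% and 64.8% in WT and 20.7%, 3.22% and 1.43% in bzip17, so WT replicate 3 stood apart. Of the 32 genes that DESeq2 called lower at 38 °C, 28 were also below 0 at 22 °C, beside 46.8% of all genes, and 3 of the 5 called higher were above 0, beside 53.1%. Both counts were also 28 and 3 without WT replicate 3 at 22 °C. The median log2 change of the 32 was -1.62 at 38 °C and -0.62 at 22 °C, and 31 of them were smaller at 22 °C. Since the genes were chosen by their size at 38 °C, the smaller reading at 22 °C is only a description. QQS read 1.31, 3.10 and 3.64 CPM in WT and 15.8, 10.2 and 8.14 CPM in bzip17 at 22 °C, again without overlap (log2 change 2.12). The difference of the genotype change between 38 and 22 °C gave 0 genes by edgeR at an adjusted p under 0.05, with 895 (4.32%) at an unadjusted p under 0.05, and 6 (0.029%) by DESeq2.

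**Figure D5:**
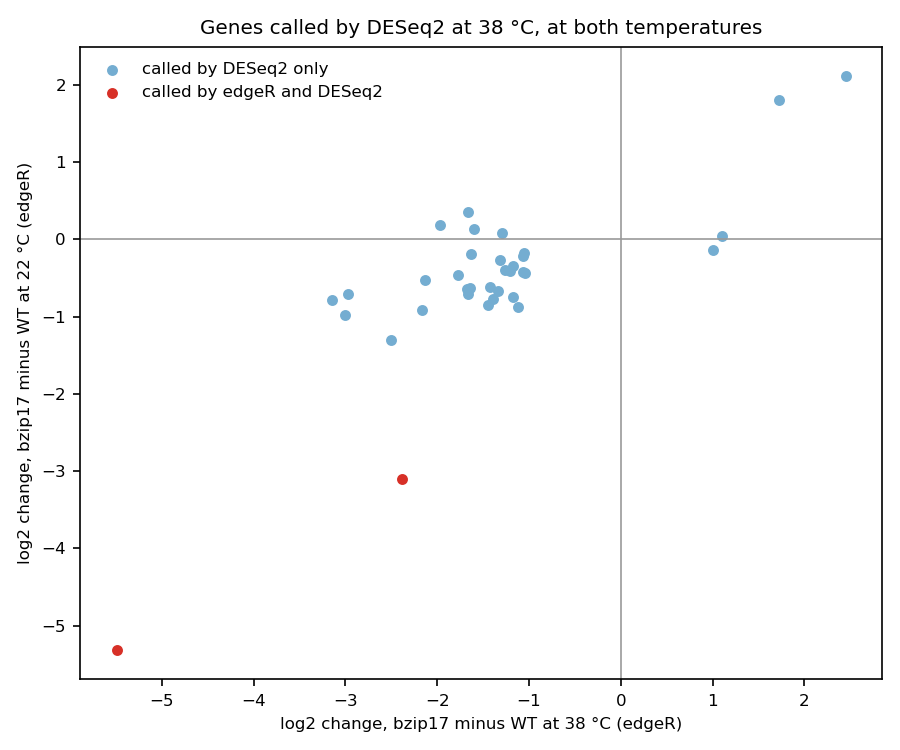
Log2 change, bzip17 minus WT, at 38 °C (x axis) and at 22 °C (y axis) from edgeR for 35 of the 37 genes that DESeq2 called at 38 °C. AT4G10955 and AT1G24147, with 0 counts in a group, are left out, and red points are BZIP17 and AT3G42658.1, called by both tools, both low at both temperatures.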

How the data were processed

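RNA was sequenced from flower buds of WT and bzip17 plants at 22 and 38 °C (Illumina NovaSeq, 3 libraries per group). The authors trimmed reads with cutadapt, aligned them with HISAT2 to TAIR10 and assembled and quantified transcripts with StringTie. The deposited table holds raw counts and FPKM per gene. How the counts were taken and whether strand was used are not given in the sources used here. Counts of genes that overlap in the deposited coordinates therefore cannot be told apart.

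The deposited counts were tested with edgeR 4.0.16 in R 4.3.3 (TMM scaling, quasi-likelihood test, 4 group means over 12 libraries) on the 20715 genes with the deposited FPKM at 1 or more in at least 3 libraries. A call needed a Benjamini-Hochberg adjusted p under 0.05 and over 2-fold. DESeq2 1.42.0 was an alternative. The scripts were tested on simulated data. Standard errors were derived from the quasi-likelihood F, and intervals are 95%. Replicates differed beyond counting noise (chi-square per degree of freedom 78.5 to 459.9). Totals were between 38584506 and 71779333 counts over the 12 libraries, and fold bounds cover counting error only.

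The comparison, the gene lists (22, with 637 genes) and the tests were chosen with earlier results of these data known. The genes chosen by rule were BZIP17 with its list and neighbours and the targets followed by RT-qPCR. Of each list, up to 4 called members with the smallest p were chosen or, where none was called, up to 2. Also chosen were called genes with the largest change or smallest p, and genes called at 22 °C or in the difference between temperatures. Not every gene so chosen is named above. Other genes were named after their values were seen. Promoters were read from TAIR10.1, where 28931 of 28932 matched genes overlapped their RefSeq gene. Alternatives covered scaling, filter, test, libraries, replicate block and call rule.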

Additional observations from a re-analysis of the deposited data

Results flagged for a closer look

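The genotype change differed between 38 and 22 °C for AT4G10955 (DESeq2 adjusted p = 5.94e-05), which had 0 counts at 22 °C in both genotypes. In the deposited coordinates, though not in RefSeq, this gene overlaps UGE5. The genotype change also differed for CYP83B1 (DESeq2 adjusted p = 0.0157), with a log2 change of -1.97 at 38 °C and 0.19 at 22 °C. In edgeR neither difference passed the test (adjusted p = 1.0 for both).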

How the results depend on the processing

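The counts of called genes, 1 higher and 2 lower, were the same with median-of-ratios scaling, without rRNA and organelle genes, without the filter, and at any fold. Library totals without scaling factors gave 3 higher and 4 lower, and DESeq2 gave 5 and 32. A rule of unadjusted p under 0.05 and over 2-fold gave 55 and 184. With the replicate number as a block in the 6 libraries at 38 °C, 0 higher and 0 lower genes were called. Whether the numbers pair the samples is not known. Same-numbered libraries at 38 °C had correlations of deviations from the group mean of -0.24, 0.33 and 0.024. Replicate 2 correlated best with its own number, and not every sample did. Deviations from a mean of 3 libraries depend on each other, so these correlations cannot decide the question. Leaving out each library at 38 °C in turn gave 0 to 2 higher and 2 to 5 lower genes. Added after seeing the data, DESeq2 on the 6 libraries alone gave 19 and 42, and leaving out the 4 libraries over 10% rRNA gave 0 and 0, with fewer samples in the fit. BZIP17 kept a log2 change between -2.46 and -2.30 over 16 alternatives and passed an adjusted p under 0.05 in 14, as did AT3G42658.1 (-6.14 to -5.09). Of the list medians, that of the circadian clock genes turned from -0.01 to 0.04 with library totals. AT4G10955 passed in 10 of 17, and summed with UGE5 it read 0.09. PDIL2-2 stayed between -1.05 and -0.98 and passed in 3 of 16. The depth of these libraries limits genes near 0 counts, where 3 counts per library was the floor.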

Other observations

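On chromosome 3, between 8693085 and 8718211, 7 of 7 tested neighbouring genes were lower in bzip17 at 38 °C and 6 of 7 at 22 °C. Of all genes, 46.8% were below 0 at 22 °C. This stretch was chosen after its values were seen, so its counts at 38 °C and its flanking values are only a description. The median log2 change was -1.07 at 38 °C and -0.62 at 22 °C, while the flanking genes GATA1 (AT3G24050) and AT3G24150 had 0.01 and 0.02. AT3G24070, a zinc knuckle protein gene, read 36.7, 52.6 and 42.7 CPM in WT and 21.2, 23.1 and 18.6 CPM in bzip17 at 38 °C. AT3G24120, a homeodomain-like gene, read 25.0, 21.6 and 21.3 CPM in WT and 12.4, 12.0 and 9.92 CPM in bzip17. DESeq2 gave 4 of the 7 an adjusted p under 0.05 at 38 °C, beside 0.212% of all genes, and edgeR called 0, with 6 lower at an unadjusted p under 0.05, beside 3.28%, and 50.5% of all genes were below 0.

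The polyubiquitin gene UBQ10, a common reference, read 31.8, 71.8 and 49.9 CPM in WT and 621, 67.1 and 787 CPM in bzip17 at 38 °C. Replicates 1 and 3 of bzip17 were high and replicate 2 was within the WT range, and the log2 change of 3.26 (SE 0.91) did not pass the test (edgeR adjusted p = 0.804). At 22 °C WT read 78.4, 96.7 and 645 CPM and bzip17 57.8, 77.1 and 84.0 CPM. FSD1, an iron superoxide dismutase, read 47.2, 16.6 and 32.9 CPM in WT and 92.2, 38.9 and 286 CPM in bzip17 at 38 °C, with overlapping groups. At 22 °C it read 10.7, 11.7 and 8.78 CPM in WT and 129, 89.6 and 39.5 CPM in bzip17, without overlap (log2 change 3.04, edgeR adjusted p = 0.327). Plastid-encoded genes summed to 1710 CPM in WT replicate 1, the library with 19.0% rRNA, and to 304 to 452 CPM in the other 5 libraries at 38 °C. Of 111 tested, 105 were below 0 with a median log2 change of -0.88, lower than that of any list of nuclear genes here. The groups did not overlap for 14, all lower in bzip17, beside 6.99% of all genes. At an unadjusted edgeR p under 0.05, 1 was lower (0.901%), beside 3.28% of all genes. The median at 22 °C was -1.41, and 0.46 without WT replicate 3 at 22 °C, the library with 64.8% rRNA.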
